A study of Caenorhabditis elegans with 14 samples.

Results

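Ciliary dynein and kinesin-2 motors carry cargo along the microtubules of the cilium in intraflagellar transport (IFT). In the data these motors were 6 genes, che-3, xbx-1, osm-3, klp-11, klp-20 and kap-1, taken by their symbols in the annotation of the array, out of 17118 genes measured. They were covered by 10 of the 22548 probe sets tested, and the probe set with the highest mean over the 14 arrays stood for each gene. The arrays measured RNA of whole Caenorhabditis elegans, as log2 signals. At the first larval stage (L1) there were 4 arrays of mutants and 4 of controls, and in adults 3 of each. The mutants carried mutations in daf-19 and in daf-12, and the controls in daf-12 alone, so that all animals were daf-12 mutants. The labels name neither the alleles nor the strains. The protocol harvests adults at 50 hours after L4, the last larval stage, while their titles call them young adults.

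In the cilia of C. elegans sensory neurons, kinesin-2 motors move IFT particles from the base to the tip, and a dynein returns them. The gene che-3 encodes the heavy chain of that dynein, and xbx-1 its light intermediate chain. The gene osm-3 encodes a kinesin-2 that works as a homodimer and builds the distal segment of many sensory cilia. The genes klp-11 and klp-20 encode the motor subunits of heterotrimeric kinesin-II, and kap-1 its accessory subunit without a motor domain. DAF-19, an RFX-type transcription factor, binds X-box motifs upstream of many ciliary genes. The series asks what DAF-19 controls in ciliated and other neurons and over the life cycle, and for the motors this is the comparison of genotypes within each stage.

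Array medians were 4.73 to 4.76 at L1 and 5.91 to 6.02 in adults, on the deposited log2 scale. Adult control array 1 stood apart from the other adult arrays. Its root mean square deviation from its group mean was 0.202, against 0.108 to 0.156 in the other 5. Without it 765 probe sets differed between adult genotypes, against 231 with it. The brighter daf-19 probe set (175811_s_at) read 8.81, 9.0, 9.07 and 8.64 in L1 mutants and 9.61, 9.82, 9.68 and 9.20 in L1 controls. In adults it read 7.83, 7.78 and 7.85 in mutants and 8.28, 8.35 and 8.52 in controls. The groups did not overlap at either stage, with log2 fold changes of -0.70 (adjusted p = 0.0125) and -0.56 (adjusted p = 0.105). The other daf-19 probe set (190486_s_at) gave -0.69 (adjusted p = 0.00281) and -0.64 (adjusted p = 0.0163). With the 3' to 5' signal difference of Gapdh in the fit the L1 calls of both ended (adjusted p = 0.219 and 0.0870), as did that of 175811_s_at in a fit of the L1 arrays by themselves (0.105). The adult call of 190486_s_at ended under 5 of 23 alternatives (adjusted p up to 0.184), and 175811_s_at passed in adults under 5 of 24. Values stayed negative throughout. No source used here places these probes against the mutated stretch, so they do not settle the labels.

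Of the 6 motor genes, 2 fell in L1 mutants, che-3 and osm-3, and none rose (limma, Benjamini-Hochberg adjusted p under 0.05 over all probe sets). Over all 17118 genes 1.22% were called, 0.83% as lower and 0.386% as higher, and 1.14% of probe sets. The L1 groups did not overlap for che-3, lower in mutants, and klp-20, higher, as held for 2.66% and 1.9% of all genes. The median log2 fold change was -0.185 over the 6 genes and 0.005 over all genes. At an unadjusted p under 0.05, xbx-1 was also lower and klp-20 higher. Of all 22548 probe sets 2226 had such a p at L1, in either direction. L1 mutant and control arrays of the same number deviated together and were taken as pairs in an alternative fit. That fit also took adult arrays of the same number as pairs. The labels state no pairing, and the main fit used none. With the pairs as a block 525 probe sets were called in place of 257, and of the motor genes che-3 (adjusted p = 6.19e-06) and osm-3 (adjusted p = 0.0394) passed again.

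**Figure D1:**
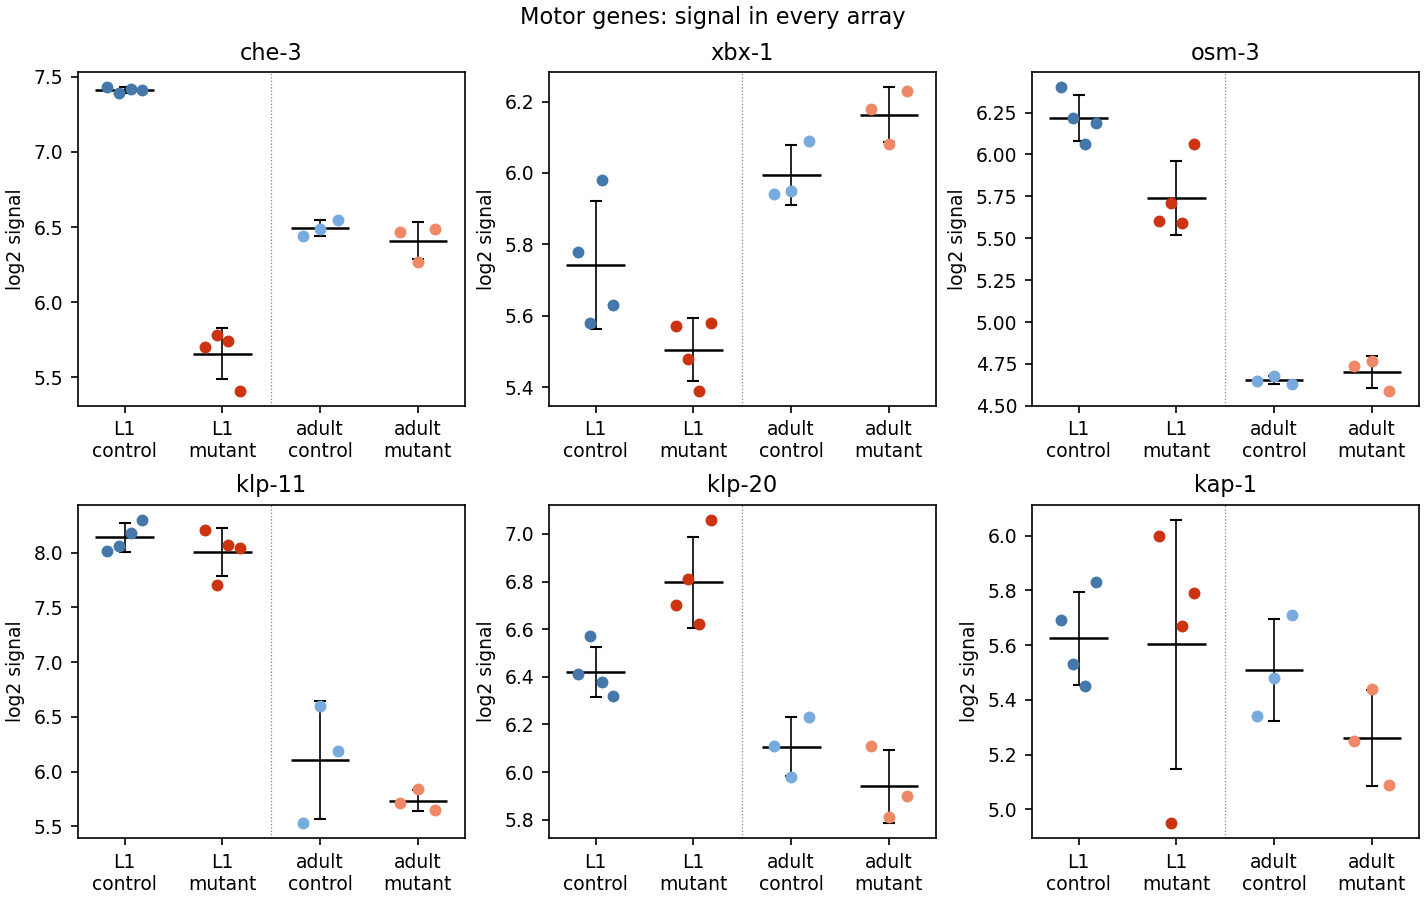
Log2 signal (y axis, one range per gene) of the probe set that stands for each motor gene in each of the 14 arrays. Points are arrays in 4 groups (x axis), lines are group means and bars are SDs (n = 4 at L1, n = 3 in adults). For che-3 the L1 mutants (5.41 to 5.78) lie below the L1 controls (7.39 to 7.43), while the adult groups overlap.

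The dynein heavy chain gene che-3 showed the largest genotype difference of the 6 motor genes. Its L1 control arrays read 7.43, 7.39, 7.42 and 7.41, and its L1 mutant arrays read 5.70, 5.78, 5.74 and 5.41. The controls lay within 0.04 of each other, and every mutant array lay far below them. The log2 fold change was -1.76 (SE 0.09, 95% interval -1.94 to -1.57, adjusted p = 7.63e-08), a level 3.38-fold lower. Its p-value ranked 2 among the 22548 probe sets. Over the 24 alternatives run for it, the log2 fold change stayed between -1.90 and -1.67, and each of them called it. The gene is measured by a single probe set (189823_s_at), of a kind that can match more than 1 transcript.

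In adults the same probe set of che-3 read 6.44, 6.49 and 6.55 in controls and 6.47, 6.27 and 6.49 in mutants, so that the groups overlapped. The log2 fold change was -0.08 (SE 0.10, adjusted p = 0.999), and its 95% interval of -0.30 to 0.13 did not reach the L1 value. The test of the difference between the stages gave 1.67 (adult minus L1, SE 0.13, adjusted p = 1.26e-05). It stayed between 1.59 and 1.87 over the 23 alternatives run, and was called in each.

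The position of che-3 within an array does not use the deposited scale, but it depends on the other probe sets, whose signals differ between stages. In L1 controls its signal stood above 81.9 to 82.2% of the probe sets of the array, and in L1 mutants above 59.7 to 65.4%. In adult controls it stood above 55.7 to 56.2%, and in adult mutants above 53.8 to 56.3%. The L1 controls stood apart at the top of the order, and the 2 adult groups, which overlapped, came last. On the deposited scale the order differed, as che-3 was higher in adult than in L1 mutants by 0.75.

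The dynein light intermediate chain gene xbx-1 did not pass at either stage. It read 5.78, 5.58, 5.98 and 5.63 in L1 controls and 5.57, 5.48, 5.39 and 5.58 in L1 mutants. The highest mutant array equalled the lowest control array. The L1 log2 fold change was -0.24 (SE 0.09, 95% interval -0.43 to -0.04, adjusted p = 0.355). This interval does not reach the fall of che-3. Adult controls read 5.94, 5.95 and 6.09 and adult mutants 6.18, 6.08 and 6.23, so that these groups overlapped. The adult log2 fold change was 0.17 (SE 0.11, 95% interval -0.06 to 0.40, adjusted p = 0.901), and the difference between stages was 0.41 (SE 0.14, adjusted p = 0.299). The probe set of xbx-1 (179288_at) was the only one of the 10 of the plain kind, meant to match a single transcript.

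The homodimeric kinesin-2 gene osm-3 fell at L1 by less than che-3. It read 6.40, 6.22, 6.06 and 6.19 in L1 controls and 5.60, 5.71, 5.59 and 6.06 in L1 mutants. The groups met at 6.06, where L1 mutant array 4 equalled L1 control array 3. The log2 fold change was -0.48 (SE 0.11, 95% interval -0.70 to -0.25, adjusted p = 0.0437). The adjusted p lay close to the threshold. The call ended on leaving out any 1 of 12 of the 14 arrays (adjusted p = 0.0548 to 0.141), among them all 6 adult arrays, which enter only the estimate of the spread, and held with L1 mutant array 4 left out (0.00484), or with L1 control array 3 left out (0.0457). It also ended with only the L1 arrays in the fit (0.206) and when the fit took in the 3' to 5' signal difference of Gapdh (0.291). The log2 fold change stayed between -0.58 and -0.42 over all 24 alternatives.

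In adults osm-3 lay near the low end of the arrays. It read 4.65, 4.68 and 4.63 in controls and 4.74, 4.77 and 4.59 in mutants, above 26.8 to 29.2% of the probe sets. No array had it below its lower quartile, and the groups overlapped. Mutants differed from controls by 0.05 on the log2 scale (SE 0.12, 95% interval -0.21 to 0.31, adjusted p = 0.999). The stage difference of the genotype effect was 0.52 (SE 0.16, adjusted p = 0.202). It passed only without L1 mutant array 4 (0.63, adjusted p = 0.0421), so for osm-3 the effects at L1 and in adults are not shown to differ.

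**Figure D2:**
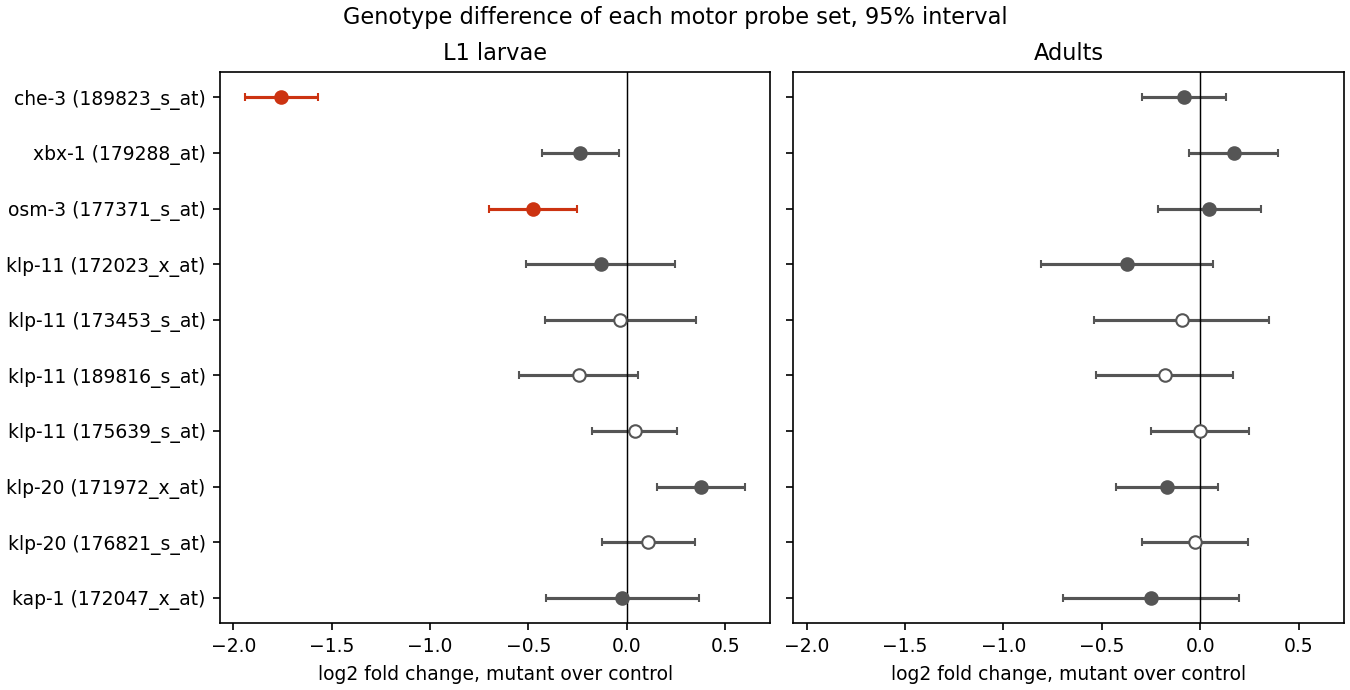
Log2 fold change of mutant over control (x axis) with its 95% interval for the 10 motor probe sets (y axis), at L1 on the left and in adults on the right. Filled points are the probe sets that stand for a gene, open points are the others, and red marks an adjusted p under 0.05: che-3 and osm-3 at L1.

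The kinesin-II motor subunit gene klp-20 went the other way from che-3 and osm-3 at L1, without passing. Its brighter probe set (171972_x_at) read 6.41, 6.57, 6.38 and 6.32 in L1 controls and 6.70, 6.81, 6.62 and 7.06 in L1 mutants. All mutant arrays lay above all control arrays. This gave a log2 fold change of 0.38 (SE 0.10, 95% interval 0.15 to 0.60, adjusted p = 0.129; 0.0561 to 0.366 over the alternatives). The second probe set (176821_s_at) gave 0.11 (SE 0.11, 95% interval -0.12 to 0.34, adjusted p = 0.874), with overlapping groups.

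In adults the brighter klp-20 probe set read 6.11, 5.98 and 6.23 in controls and 6.11, 5.81 and 5.90 in mutants. These groups overlapped, and mutants differed from controls by -0.17 on the log2 scale (SE 0.12, 95% interval -0.43 to 0.09, adjusted p = 0.974). The stage difference of the genotype effect was -0.54 (SE 0.16, adjusted p = 0.177), and it did not pass under any alternative run. The other probe set gave -0.03 in adults (SE 0.13, adjusted p = 0.999).

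The other kinesin-II motor subunit gene, klp-11, was measured by 4 probe sets, and none passed for genotype at either stage. The brightest (172023_x_at) read 8.01, 8.06, 8.18 and 8.30 in L1 controls and 8.21, 7.70, 8.07 and 8.04 in L1 mutants. The groups overlapped, and the log2 fold change was -0.13 (SE 0.18, 95% interval -0.51 to 0.25, adjusted p = 0.928). The other 3 gave L1 values from -0.245 to 0.04. All 4 intervals exclude a fall as large as that of che-3.

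In adults the brightest klp-11 probe set depended on 1 array. Controls read 5.53, 6.60 and 6.19, and mutants read 5.71, 5.84 and 5.65. Adult control array 1, the array that stood apart, lay below all mutants and the other 2 controls above them. With all arrays the log2 fold change was -0.37 (SE 0.20, 95% interval -0.81 to 0.06, adjusted p = 0.804). Without adult control array 1 it was -0.66 (adjusted p = 0.0307), and with array weights -0.71 (adjusted p = 0.00609). Both of these fits called more probe sets in adults than the main fit, which called 231 of 22548. The other 3 klp-11 probe sets gave adult values from -0.18 to 0, and none of them passed in these fits. The epidermal collagen genes col-19 (-1.40, adjusted p = 0.000659) and dpy-7 (-1.31, adjusted p = 4.36e-05) also passed as lower without that array, and their part in the klp-11 value was not tested.

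**Figure D3:**
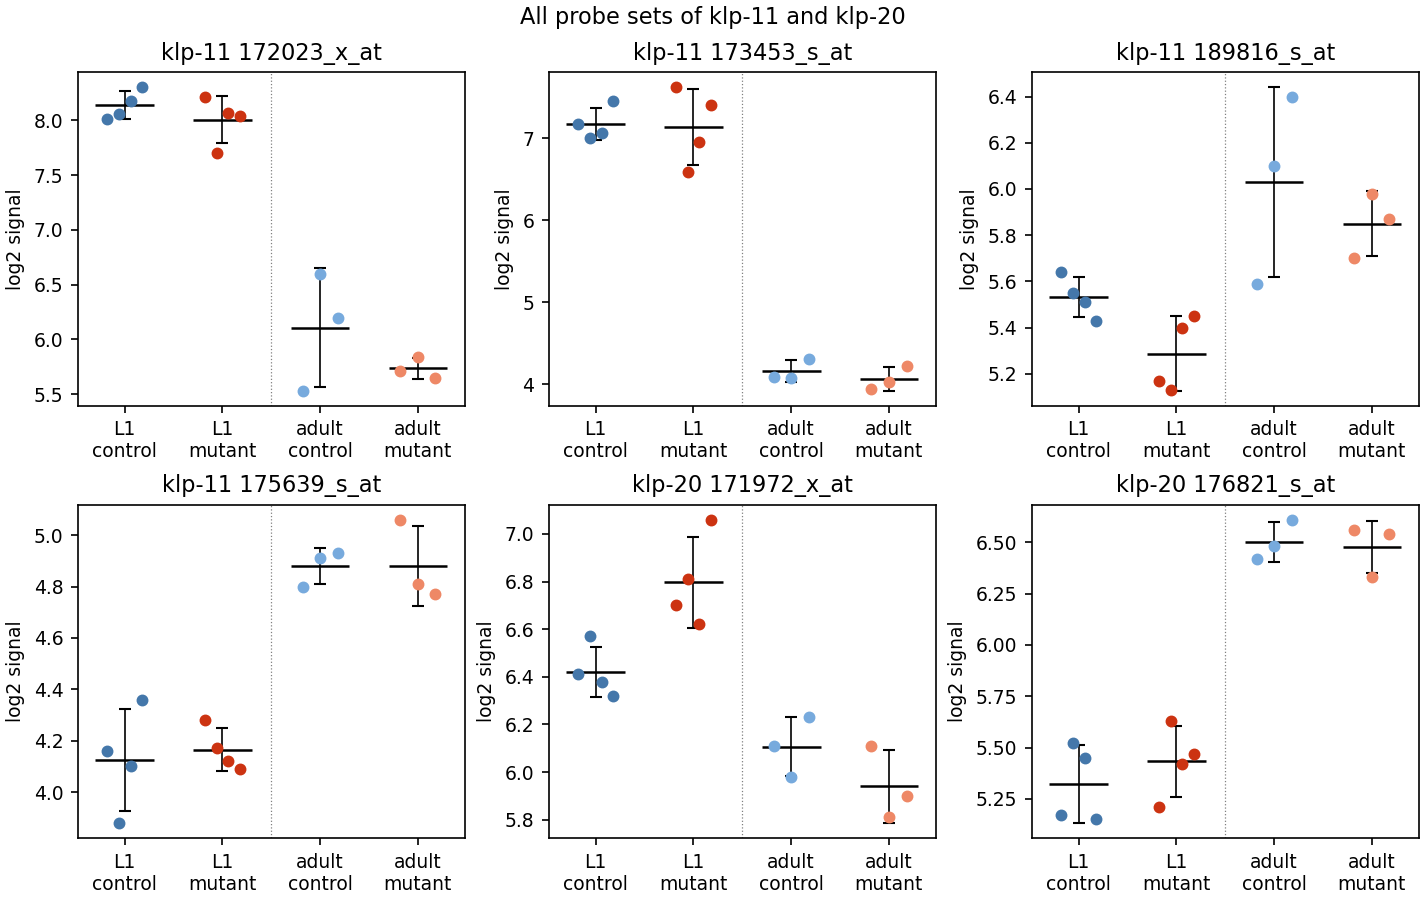
Log2 signal (y axis) of the 4 probe sets of klp-11 and the 2 of klp-20 in each array, by group (x axis), with group means and SDs. From L1 to adults the first 2 klp-11 probe sets and the first of klp-20 are lower and the others higher on the deposited scale, and the genotypes overlap in every panel at both stages except klp-20 171972_x_at at L1.

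The kinesin-II accessory subunit gene kap-1 did not pass at either stage. It read 5.69, 5.53, 5.45 and 5.83 in L1 controls and 6.00, 4.95, 5.67 and 5.79 in L1 mutants. L1 mutant array 2 lay lowest and mutant array 1 highest, so the mutants spanned the controls. The log2 fold change was -0.02 (SE 0.18, 95% interval -0.41 to 0.37, adjusted p = 0.993). Adult controls read 5.34, 5.48 and 5.71 and adult mutants 5.25, 5.44 and 5.09. These overlapped, and the adult difference was -0.25 (log2, SE 0.21, 95% interval -0.70 to 0.20, adjusted p = 0.999).

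L1 mutant array 2 was also the lowest of its group in the 2 brighter probe sets of klp-11. It deviated from its group mean by -0.65 for kap-1, by -0.55 for klp-11 173453_s_at and by -0.31 for klp-11 172023_x_at. The deviations of kap-1 and klp-11 173453_s_at from their group means correlated at r = 0.83 over the 14 arrays. Those of che-3 and osm-3 correlated at r = -0.71, as L1 mutant array 4 was the lowest for che-3 and the highest for osm-3. All probe sets of an array share its hybridisation, and probe sets of a gene share a transcript.

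In adults, 0 of the 6 motor genes passed for genotype (limma), in either direction, and 0 did at an unadjusted p under 0.05. Over all genes 1.06% were called (0.695% lower, 0.368% higher), and 1.02% of probe sets. Of all 22548 probe sets 1776 had an unadjusted p under 0.05 in adults. The adult groups overlapped for all 6, while mutants lay wholly below controls for 5.84% of all genes and wholly above for 7.9%. The median log2 fold change was -0.125 over the 6 and 0.027 over all genes. For the difference of the genotype effect between stages, 1 of the 6 passed, che-3. Over all genes 0.976% passed (0.45% lower, 0.526% higher), and 0.914% of probe sets. The genes xbx-1, osm-3 and klp-20 had an unadjusted p under 0.05, as did 2013 of the 22548 probe sets.

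The drop of che-3 at L1 stood beside other parts of the IFT machinery, on lists of pathway genes. Of 6 genes of the IFT-A complex, which works with dynein in return transport, 3 fell: ifta-1 (-1.30, SE 0.11, adjusted p = 2.32e-05), ift-139 (-1.13, or -0.51 as a mean over its probe sets) and che-11 (-0.74, adjusted p = 0.0437). The call of che-11 ended under 12 of 24 alternatives. Of 13 genes of the IFT-B complex, which works with kinesin-2, 4 fell, among them che-2 (-0.80, adjusted p = 0.00153), and 1 rose, dyf-11 (1.2, adjusted p = 0.000244). Of 7 genes of the BBSome and its GTPase gene arl-6, 3 fell, with bbs-1 at -1.08 (adjusted p = 0.000168). The list medians were -0.47, -0.235 and -0.34, against 0.005 over all genes. Over all genes 1.22% were called at L1, 0.83% as lower and 0.386% as higher.

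Genes that act on the ciliary motors or on their track included both directions at L1. Of 4 measured regulators of IFT motors, 1 rose, the small GTPase gene arl-13 (0.86, adjusted p = 0.00839; 0.122 with the Gapdh covariate). Its relative arl-3 (0.62, adjusted p = 0.110) passed with the pairs as a block (adjusted p = 0.0321). The kinase genes dyf-5 (-0.14) and dyf-18 (-0.10) did not pass. Of 13 genes for axoneme tubulins and enzymes that modify tubulin, 2 fell, the glutamylase-family genes ttll-11 (-0.62, adjusted p = 0.00682) and ttll-4 (-0.425, adjusted p = 0.042, a call that ended under 18 of 24 alternatives). At L1 1.22% of all genes were called, 0.83% as lower and 0.386% as higher. In adults 0 of the 81 genes on these lists and on the lists of other motors passed. At an unadjusted p under 0.05, 2 of them were lower and 1 higher. Over all genes 1.06% were called in adults, and 1776 of 22548 probe sets had an unadjusted p under 0.05.

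Of the lists of other motors, 0 of 20 genes for cytoplasmic dynein-1 and dynactin and 0 of 18 for other kinesins were called by limma at L1. Over all genes 1.22% were called, so lists of this size could have no call without differing from other genes. These lists are not free of ciliary genes: dylt-2 (also xbx-2), a dynein light chain gene of the Tctex type, and the kinesin-3 gene klp-6 are known to act in cilia. At an unadjusted p under 0.05, 4 genes of these lists were lower and 4 higher, and 2226 of all 22548 probe sets differed in either direction. The heavy chain gene of cytoplasmic dynein-1, dhc-1, gave 0.145 at L1 (SE 0.10, adjusted p = 0.743) and 0.07 in adults (adjusted p = 0.999). Its light intermediate chain gene dli-1 gave 0.17 at L1 (SE 0.10, adjusted p = 0.662). The conventional kinesin heavy chain gene unc-116 was 0.32 at L1 (SE 0.09, adjusted p = 0.123), with mutant arrays above all controls. The value of klp-6 was 0.075 (SE 0.10, adjusted p = 0.929). Closest to the threshold among these lists was dylt-2, at -0.465 (SE 0.11, adjusted p = 0.0628; 0.0408 after joint quantile normalization). With the pairs as a block, dnc-2 of dynactin passed as lower (-0.45, adjusted p = 0.041), and without L1 mutant array 2 dlc-1, a dynein light chain gene, did (-0.50, adjusted p = 0.0286).

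**Figure D4:**
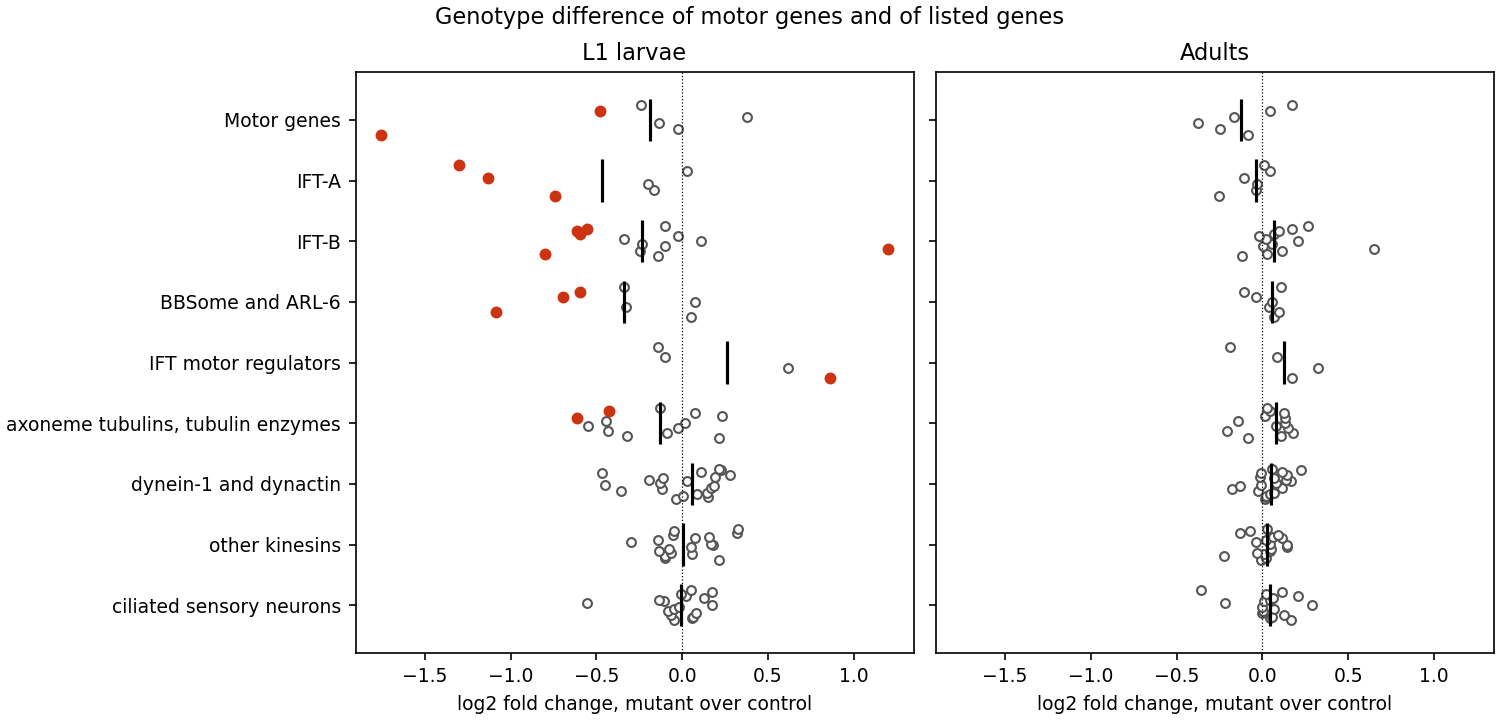
Log2 fold change of mutant over control (x axis) at L1 and in adults for the 6 motor genes and for the genes of 8 lists (y axis). Each point is a gene, red where its adjusted p is under 0.05, and black lines are list medians; at L1 the motor median is -0.185 and those of dynein-1 and dynactin and of other kinesins are 0.0575 and 0.0025.

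In whole animals, fewer cells of a type and less RNA per cell cannot be told apart. Markers of ciliated sensory neurons that are not IFT genes numbered 17, such as the channel genes tax-4 and osm-9. Of these 0 passed (limma) at L1 or in adults. At an unadjusted p under 0.05, 1 was lower at L1 and 2 were higher in adults. The median log2 fold change of the markers was -0.0075 at L1 and 0.047 in adults. Over all genes 1.22% were called at L1 and 1.06% in adults. Of all 22548 probe sets 2226 at L1 and 1776 in adults had an unadjusted p under 0.05. The summed signal of the 17 markers was 9.44 to 9.79 (log2) in L1 controls and 9.31 to 9.69 in L1 mutants. In adults it was lower, at 8.698 to 8.807 in controls and 8.709 to 8.822 in mutants. The 13 markers of all neurons, though fewer, summed to 13.60 to 13.66 in L1 controls and 11.789 to 12.196 in adult controls. Signals of the 17 markers were thus low at both stages, and a fall in low signals is hard to see. The lack of calls at L1 and in adults therefore says little about these neurons. For the log2 fold change of tax-4 at L1, a dimmer probe set raised the mean over its probe sets to 0.51, which passed (adjusted p = 0.00235). Whether the number of these neurons differed between genotypes was not tested.

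Over 8 marker lists, which also took in all neurons, glia, muscle, intestine, epidermis, germline and yolk, 0 of 79 genes passed at L1 or in adults (limma). Over all genes 1.22% were called at L1 and 1.06% in adults. At an unadjusted p under 0.05, 4 of the markers were lower and 3 higher at L1, against 2226 of 22548 probe sets in either direction. Epidermal markers leaned lower without passing in the main fit. In L1 mutants 8 of 8 were lower, with a median of -0.10, and in adult mutants 8 of 8, with a median of -0.25. Germline and oocyte markers leaned higher, with 1 of 10 lower at L1 and 2 of 10 in adults. With the pairs as a block, rol-6 (-0.59, adjusted p = 0.0299) and dpy-13 (-0.395, adjusted p = 0.0222) passed as lower at L1, and the glial marker vap-1 as higher (0.925, adjusted p = 0.00625). The summed signal of the epidermal markers was 12.81 to 12.97 in L1 mutants and 13.07 to 13.26 in L1 controls. In adults the sums overlapped, at 13.12 to 13.49 in mutants and 13.47 to 13.98 in controls. The 3' minus 5' signal of Gapdh, a measure of RNA quality and labelling, was 3.83 to 4.12 in L1 mutants and 3.16 to 3.83 in L1 controls. With this difference in the fit che-3 gave -1.90 at L1 (adjusted p = 4.02e-05). The part of epidermal content in the motor differences was not tested.

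**Figure D5:**
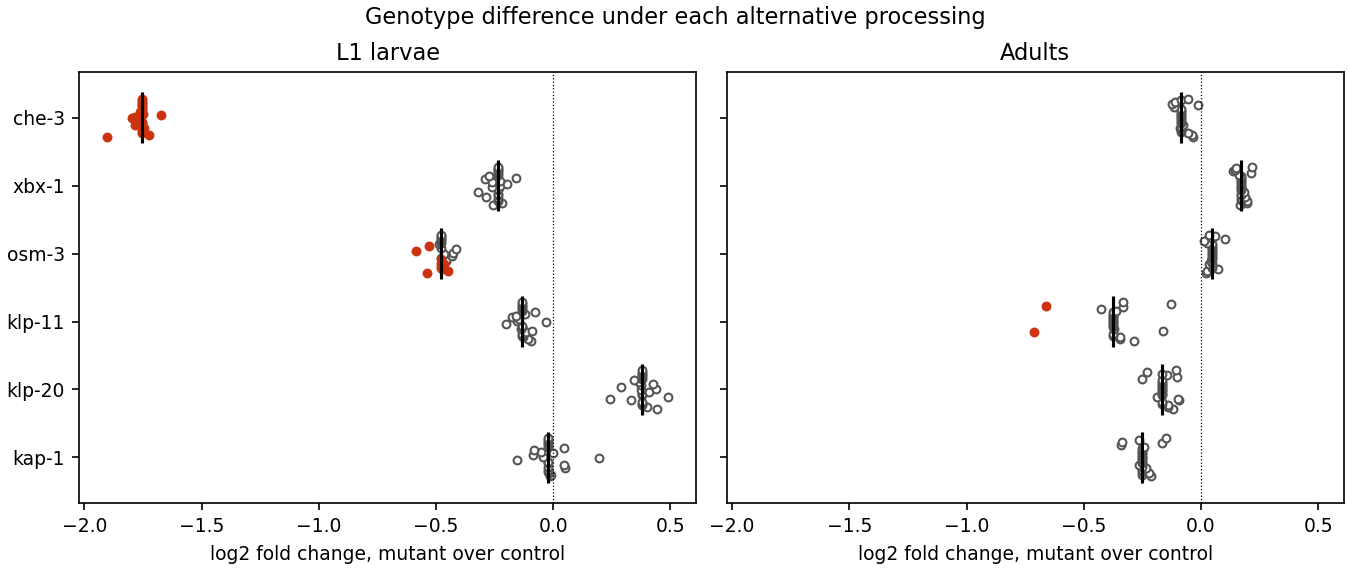
Log2 fold change of mutant over control (x axis) of each motor gene (y axis) under every alternative processing, at L1 and in adults. Points are alternatives, red where the adjusted p is under 0.05, and the line is the reported value; che-3 at L1 stays between -1.90 and -1.67, and klp-11 in adults passes in 2 alternatives.

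Between stages the motor genes could be compared only with the scaling in view. On the deposited scale the median over all probe sets was 0.90 higher in adult than in L1 controls, and 89.8% of genes were called in controls (15.8% lower, 74% higher) and 89.7% in mutants (15.4% lower, 74.3% higher). Of probe sets 90.1% and 90% were called. Of the called probe sets 83.4% were higher in adult controls, against 48.7% after joint quantile normalization of all arrays and 39.2% after median centring. The Gapdh 3' minus 5' signal also differed, at 3.16 to 4.12 at L1 and -0.54 to -0.36 in adults, and it cannot be told apart from stage.

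In controls, 4 motor genes were lower in adults than at L1 on the deposited scale: klp-11 (-2.03), osm-3 (-1.56), che-3 (-0.92) and klp-20 (-0.31). Relative to the median of all probe sets these values were -2.93, -2.47, -1.82 and -1.21. The gene xbx-1 was higher by 0.25 on the deposited scale and -0.65 relative to the median, and turned to -1.14 after joint quantile normalization. The gene kap-1 did not pass (-0.12, adjusted p = 0.581). In mutants 3 were lower, klp-11 (-2.27), osm-3 (-1.04) and klp-20 (-0.86), and xbx-1 (0.66) and che-3 (0.75) were higher. Both of these turned after joint quantile normalization, to -0.72 and -0.70.

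Probe sets of a gene disagreed on stage. In controls klp-11 gave -2.03 and -3.02 by 172023_x_at and 173453_s_at, but 0.50 and 0.755 by 189816_s_at and 175639_s_at. The probe set 173453_s_at lay below the lower quartile of signal in all 6 adult arrays, so its adult level is close to the bottom of the scale. After joint quantile normalization the latter 2 gave -0.875 and -0.18, still far from the first 2. For klp-20, 171972_x_at gave -0.31 and 176821_s_at gave 1.18, or 0.28 above the median of all probe sets, which turned to -0.24 after joint quantile normalization. The second klp-20 probe set averaged 5.32 ± 0.19 (SD, n = 4) in L1 controls and 6.50 ± 0.10 (n = 3) in adult controls.

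The genes with profiles most like each motor gene were taken as the 3 highest Pearson correlations over the 14 arrays, after subtraction of each stage's mean. For che-3 these were C18F10.2 (r = 0.98), clec-194 (0.98) and B0222.1 (0.97), each lower in L1 mutants (-2.37, -2.45 and -1.29). For osm-3 they were ZC132.9 (0.91), nhr-132 (0.89) and Y54G11A.7 (0.89), and for xbx-1 nhr-188 (0.84), K10H10.5 (0.81) and sul-3 (0.80). For klp-11 they were let-522 (0.91), pept-3 (0.89) and clc-6 (0.88), for klp-20 K10D11.5 (0.88), M03C11.3 (0.88) and smg-3 (0.87), and for kap-1 math-16 (0.91), R07B7.6 (0.88) and K03A11.5 (0.88). None of the 18 is one of the 6 motor genes. Among the motors themselves che-3 and osm-3 correlated at 0.75 and klp-11 and kap-1 at 0.61, while che-3 and klp-20 gave -0.73. These values include the genotype differences. With the mean of each group subtracted instead, che-3 and osm-3 gave -0.71, klp-11 and kap-1 0.55, and che-3 and klp-20 -0.32. Arrays of a group share their genotype, and the probe sets of an array share its hybridisation. For che-3 the L1 genotypes form separate clusters.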

How the data were processed

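The deposited values are log2 signals per probe set of an Affymetrix array, the unit being read from the values; how the authors corrected, summarised and normalized them is not stated in any source used here. RNA came from Trizol and column extraction, and 6 ug were labelled with biotin, per the labels' protocols. Quantiles match within a stage and not between stages. Of 22625 probe sets 77 controls were left out. Symbols came from the platform annotation (20766 probe sets with 1 gene, 887 with several, 895 unlisted), checked against RefSeq genes of WBcel235 (20701 matched, 0 changed).

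One limma 3.58.1 fit in R 4.3.3 (lmFit, eBayes) with a mean for each group used all 14 arrays (10 residual and 4.18 prior degrees of freedom). P-values were two-sided, Benjamini-Hochberg adjusted over 22548 probe sets per contrast, threshold 0.05. Errors are standard errors of the fit, SDs are over arrays, and replicates are called biological in the labels. The number of arrays limits precision. The fit was tested on simulated data.

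Same-numbered L1 mutant and control arrays deviated together (r = 0.19 to 0.42, every pair above 0.1), so an alternative fit took the numbers as pairs. It did so within both stages. The labels state no pairing, and the main fit left the arrays unpaired. The motor genes, lists and tests were chosen with earlier results of these data known. Named genes are all motor probe sets, daf-19, and of each list up to 4 past the threshold or the 2 with the smallest p; the text gives a selection of these. Lists were IFT-A, IFT-B, BBSome, IFT motor regulators, axoneme tubulins and tubulin enzymes, dynein-1 and dynactin, other kinesins and 8 marker lists. Alternatives were 3 normalizations, a filter on dim probe sets (above the lower quartile in at least 3 arrays), trended robust variance, array weights, plain probe sets alone, the mean over probe sets, a Gapdh 3' minus 5' covariate, replicate blocks, single-stage fits and leaving out each array.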

Additional observations from a re-analysis of the deposited data

Results flagged for a closer look

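A difference in the genotype effect between stages, tested as an interaction (adult minus L1), was found for che-3 among the motor genes, at 1.67 (log2). On the 7 lists other than the marker lists, the same test passed for 6 of 81 genes. These were ifta-1 (1.31), bbs-1 (1.18), ift-139 (1.03), che-2 (0.83), ttll-11 (0.745) and osm-5 (0.72). Over all genes 0.976% passed, 0.45% as lower and 0.526% as higher. The call of ift-139 ended with the mean over its probe sets (0.47, adjusted p = 0.105), and those of che-2, ttll-11 and osm-5 ended on leaving out single arrays (adjusted p up to 0.102, 0.132 and 0.0841). With the Gapdh covariate those of che-2 (adjusted p = 0.159) and osm-5 (adjusted p = 0.127) ended too.

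A single array lay far from the other 3 of its group in 4 of 152 groups of 4 arrays, and in none of the motor probe sets. The groups are probe sets on the same L1 arrays, some picked by a small p, so the count has no chance rate beside it. L1 mutant array 2 read 6.15 for klp-3 (others 6.58 to 6.64), 3.84 for str-2 (3.66 to 3.69) and 7.58 for unc-13 (7.89 to 7.90). L1 control array 2 read 3.12 for ptr-10 (3.22 to 3.23).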

How the results depend on the processing

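Over 26 alternatives, genotype values of the motor probe sets kept their call in 223 of 237 comparisons at L1, 235 of 237 in adults and 226 of 227 for the difference between stages; the exceptions are osm-3 at L1, klp-11 in adults and osm-3 between stages. The count of motor genes lower at L1, 2, became 1 with the Gapdh covariate or only L1 arrays and 1 to 2 on leaving out an array. In adults it was 0, or 1 with array weights, and 0 to 1 on leaving out an array. The count with a higher value between stages, 1, became 1 to 2. With plain probe sets alone only xbx-1 stayed, and both these counts of 2 and 1 became 0.

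For adult against L1, the counts in controls (4 lower, 1 higher) became 3 to 4 and 0 to 1 on leaving out an array, 0 higher after joint quantile normalization or median centring, 2 higher with the mean over probe sets, 0 lower with plain probe sets, and 0 and 0 with the Gapdh covariate, which extrapolates between stages. In mutants (3 lower, 2 higher) they became 6 and 0 after joint quantile normalization or median centring, 0 and 1 with plain probe sets, and 0 and 0 with the covariate. Values that changed sign against the deposited scale, in controls, were klp-20 171972_x_at with the mean over probe sets (0.43), and after joint quantile normalization and median centring xbx-1 (-1.14, -0.98), klp-11 189816_s_at (-0.875, -0.73) and 175639_s_at (-0.18, -0.47) and klp-20 176821_s_at (-0.24, -0.046). In mutants these were 0.093 for klp-20 171972_x_at, and che-3 (-0.70, -0.45), xbx-1 (-0.72, -0.54), klp-11 189816_s_at (-0.73, -0.64) and 175639_s_at (-0.24, -0.49) and klp-20 176821_s_at (-0.36, -0.16). With the covariate klp-11 189816_s_at turned to -0.35 and -0.37 and klp-20 176821_s_at to -0.078 and -0.34, in controls and mutants. The cause was not tested.

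The replicate block within each stage changed no other motor call. Deviations of adult mutant and control arrays of the same number correlated at r = 0.44 for number 1, 0.11 for number 2 and 0.04 for number 3. All probe sets called numbered 257 at L1 (525 with the replicate block, 95 with the covariate, 98 with L1 arrays alone, 153 without L1 control array 4), 231 in adults (427 with the block, 1996 with array weights, 128 for plain probe sets, 103 to 765 on leaving out an array), 206 between stages (420, 905, 97 with the covariate, 91 to 562), and 20312 and 20300 for stage (3747 and 3123 with the covariate). Signal near the lower quartile limits osm-3 in adults and klp-11 173453_s_at, and no detection calls were used.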
